A study of Mus musculus with 12 samples.

Results

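The genes described here are those that build glycogen, the branched glucose store of animal cells, and those that break it down again, in interscapular brown adipose tissue (BAT). They comprise 9 of the 25124 genes of the expression table. On the synthesis side stand *Gyg*, *Ugp2*, *Gys1*, *Gys2* and *Gbe1*, on the breakdown side *Pygl*, *Pygb* and *Pygm*, and *Ppp1r3c* acts on both sides. The members were picked by gene symbol for their place in the pathway, with earlier results of these data known, and *Gys2* was put forward because it was low in mice without *Txnip*. Its values are therefore given as a description without a test.

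Expression was measured by RNA-seq in 12 libraries, 3 in each of 4 groups of male mice that were 10 weeks old and on a C57B/6J background. Wild type (WT) littermates and *Txnip*-/- mice, which lack thioredoxin-interacting protein, were kept for 1 week at 23 °C (room temperature, RT) or at 30 °C (thermoneutrality, TN). Groups are named by temperature and then genotype, as RT WT or TN *Txnip*-/-. No further allele or agent was shared by the groups, and the sources used here name no tissue-specific driver for the loss of *Txnip*. Each library was taken as a mouse of its own, and where this does not hold, p-values measure technical spread only.

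Glycogen synthesis starts on glycogenin, the protein primer encoded by *Gyg*. Glucose is activated to UDP-glucose by the product of *Ugp2*, glycogen synthase (*Gys1* or *Gys2*) adds it to the growing chain, and the branching enzyme *Gbe1* sets the branch points. Glycogen phosphorylase, which exists as a liver form (*Pygl*), a brain form (*Pygb*) and a muscle form (*Pygm*), releases glucose 1-phosphate from the chain ends. The pathway is switched by phosphorylation: phosphorylase kinase activates phosphorylase, glycogen synthase kinase 3 inhibits the synthase, and protein phosphatase 1, held on the particle by targeting subunits such as *Ppp1r3c*, reverses both. In brown fat, glycogen is known as a fuel store that turns over when heat production and feeding change.

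Values are TPM, the transcript abundances of RNA-seq scaled for transcript length and library size, so that levels of different genes can be compared. Libraries held between 29.93 M and 47.44 M reads, and Pearson's r across genes between libraries of the same group was between 0.9854 and 0.9934. *Txnip* ranged from 564 to 694 TPM in WT against 24.8 to 35.4 TPM in *Txnip*-/- mice at RT, and from 1070 to 1240 TPM in WT against 10.5 to 14.4 TPM in *Txnip*-/- mice at TN, as the labels require. The 8 brown adipocyte markers (*Ucp1*, *Cidea*, *Prdm16*, *Ppargc1a*, *Cox8b*, *Elovl3*, *Zic1* and *Dio2*) summed to between 2910 and 10500 TPM in every library, and none was at 0 in all libraries of a group. All 8 liver markers, *Alb* and *Apoa1* among them, stayed below 1 TPM in every library, with 0.172 TPM as the highest single value. Fold changes are given on the log2(TPM + 1) scale with their standard error (SE) and the limma p-value adjusted over all genes tested. Calls needed an adjusted p under 0.05 and a change beyond 0.32 in either direction on the log2 scale, so that a decrease needed a fold below 0.8. Adding 1 to the TPM makes fold changes of low genes smaller than the ratio of their TPM.

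On this length-scaled scale the pathway was led by *Pygl*, with a mean of 468 TPM over the 12 libraries and 258 TPM in its lowest library. *Gbe1* followed with a mean of 200 TPM and a highest value of 230 TPM, so that *Pygl* exceeded *Gbe1* in every library. *Ugp2* (mean 106 TPM), *Gyg* (99.7 TPM) and *Gys1* (95 TPM) formed a middle group whose ranges over the 12 libraries overlapped. *Ppp1r3c* (69.0 TPM) and *Pygb* (65.8 TPM) also overlapped, whereas *Gys2* (16.3 TPM) and *Pygm* (4.15 TPM) were the lowest.

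**Figure D1:**
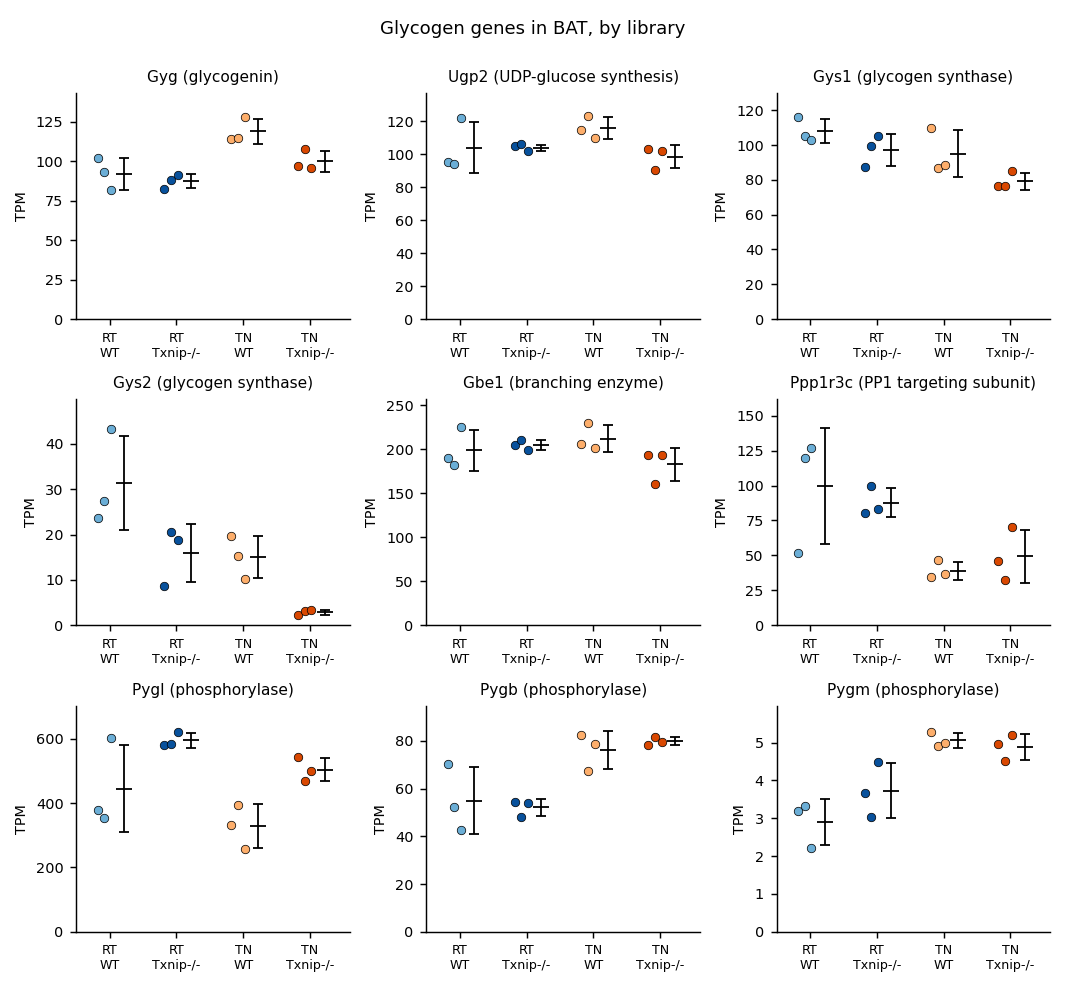
TPM of the 9 glycogen genes (vertical axes, starting at 0) in the 4 groups (horizontal axes). Each dot is 1 library and the bars give mean and SD of 3. *Gys2* sits between 23.7 and 43.2 TPM in RT WT and between 2.23 and 3.37 TPM in TN *Txnip*-/-, and *Pygl* between 470 and 621 TPM in the *Txnip*-/- libraries.

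*Gys2* encodes the glycogen synthase known as the liver form (transcript NM_145572, mm10 chr6:142422613-142473109, minus strand). It was at 23.7, 27.4 and 43.2 TPM in RT WT and at 8.57, 20.5 and 18.7 TPM in RT *Txnip*-/-. At TN it was at 19.6, 15.3 and 10.3 TPM in WT and at 2.23, 3.07 and 3.37 TPM in *Txnip*-/-. Every *Txnip*-/- library thus lay below every WT library of its temperature, and replicate 3 of RT WT was the highest of all 12. The *Txnip*-/- mean was 50.7% of the WT mean at RT (15.9 ± 6.44 against 31.4 ± 10.3 TPM, SD, n = 3 each) and 19.2% at TN (2.89 ± 0.59 against 15.1 ± 4.64 TPM, SD, n = 3 each). The log2 fold change was −0.98 (SE 0.34) at RT and −2.02 (SE 0.21) at TN, and their difference was −1.04 (SE 0.45). Without replicate 1 of RT *Txnip*-/-, the lowest library of its group, the RT value was −0.61. With the authors' log2-scale values the fold changes were −0.67 at RT and −1.37 at TN, and with log2(TPM + 0.1) the TN value was −2.32. These values belong to the contrasts for which *Gys2* was chosen and carry no test. Fewer cells of a type and less RNA per cell cannot be told apart in such tissue libraries. The summed brown adipocyte markers moved in the same direction, from 9930–10500 TPM in RT WT to 7470–9580 TPM in RT *Txnip*-/- and from 5670–6470 TPM in TN WT to 2910–3470 TPM in TN *Txnip*-/-, and their part in the *Gys2* values was not tested. That sum consists mostly of *Ucp1*, *Cidea* and *Cox8b*, while the RT means of *Prdm16* (9.09 TPM in WT, 10.7 TPM in *Txnip*-/-) and *Ppargc1a* (23.8 and 32.4 TPM) were higher in *Txnip*-/- mice with overlapping libraries. The 4 markers of mature adipocytes (*Adipoq*, *Plin1*, *Lpl* and *Fabp4*) overlapped in sum between genotypes, at 19000–19900 TPM in WT against 17900–21200 TPM in *Txnip*-/- mice at RT, and 15400–16900 TPM against 15100–17000 TPM at TN. Most of this sum is *Fabp4*, whereas *Plin1* was lower in every *Txnip*-/- library than in any WT library at RT (707–767 against 827–889 TPM) and at TN (525–645 against 655–754 TPM), and *Lpl* at TN (830–935 against 1010–1120 TPM). The liver markers, at no more than 0.327 TPM in sum, were near 0 in all groups.

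Between temperatures the *Gys2* values are likewise a description, since the same 12 libraries gave the values for which the gene was picked. In WT mice the log2 fold change was −1.01 (SE 0.31), and the 3 TN libraries, at 10.3 to 19.6 TPM, lay below the 3 RT libraries, at 23.7 to 43.2 TPM. Without replicate 3 of RT WT it was −0.76. In *Txnip*-/- mice the value was −2.05 (SE 0.31), with no overlap between 8.57–20.5 TPM at RT and 2.23–3.37 TPM at TN.

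*Gys1* encodes the synthase of muscle and most other tissues (NM_030678, mm10 chr7:45434839-45456617, plus strand). It was at 116, 105 and 103 TPM in RT WT, at 87.2, 99.4 and 105 TPM in RT *Txnip*-/-, at 110, 86.6 and 88.4 TPM in TN WT and at 76.6, 76.2 and 84.9 TPM in TN *Txnip*-/-. The groups overlapped at RT and parted narrowly at TN, where the highest *Txnip*-/- library was below the lowest WT library. *Gys1* was not called in either genotype comparison (log2 fold change −0.16, SE 0.08, adjusted p = 0.419 at RT and −0.25, SE 0.10, adjusted p = 0.168 at TN). Between temperatures it was at −0.19 (SE 0.10, adjusted p = 0.127) in WT mice, where it was called lower with median centring (−0.38, adjusted p = 0.0144). In *Txnip*-/- mice its TN against RT difference of −0.29 (SE 0.10) had an adjusted p of 0.0289, but the fold of 0.817 did not pass the limit of 0.8. It was called with upper-quartile scaling (−0.37, adjusted p = 0.00934), with median centring (−0.48, adjusted p = 0.00287), without replicate 3 of TN *Txnip*-/- (−0.34, adjusted p = 0.0276) and without replicate 1 of RT *Txnip*-/- (−0.37, adjusted p = 0.0135). Exons of *Gys1* overlap those of *Ruvbl2* on the opposite strand, and the sources do not state whether counting used the strand.

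Because *Gys2* differed more between the groups than *Gys1*, the make-up of the summed synthase TPM differed as well. *Gys2* held 22.3% ± 6.41 of it in WT and 13.7% ± 4.25 in *Txnip*-/- mice at RT, and 13.5% ± 2.63 in WT and 3.50% ± 0.588 in *Txnip*-/- mice at TN (SD, n = 3 each). At RT the shares of the genotypes just overlapped (17.0–29.4% in WT, 8.94–17.1% in *Txnip*-/- mice). *Gys1* therefore supplied most synthase transcripts in every group. The summed level was 140 ± 6.98 TPM in WT against 113 ± 15.3 TPM in *Txnip*-/- mice at RT, and 110 ± 17.2 TPM in WT against 82.1 ± 5.35 TPM in *Txnip*-/- mice at TN (SD, n = 3 each). Shares and sums contain *Gys2* and were not tested.

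*Gyg* encodes glycogenin (NM_013755, mm10 chr3:20122083-20155116, minus strand). It was at 102, 93.2 and 81.6 TPM in RT WT, at 82.3, 88.5 and 91.3 TPM in RT *Txnip*-/-, at 114, 115 and 128 TPM in TN WT and at 97.3, 108 and 95.6 TPM in TN *Txnip*-/-. The genotypes overlapped at RT but not at TN, where all 3 *Txnip*-/- libraries were lower. Neither difference was called (−0.07, SE 0.09, adjusted p = 0.746 at RT and −0.24, SE 0.08, adjusted p = 0.0912 at TN). In WT mice *Gyg* rose from RT to TN by 0.37 on the log2 scale (SE 0.08, adjusted p = 0.0043). Over all 12486 genes tested, the median difference in this comparison was 0.184, and with median centring of the libraries the *Gyg* value was 0.18 (adjusted p = 0.1) and no longer called. It was 0.27 with upper-quartile scaling, 0.28 without replicate 3 of RT WT and 0.31 without replicate 3 of TN WT, all below the fold limit. In *Txnip*-/- mice it was 0.20 (SE 0.08, adjusted p = 0.0725), beside a median of 0.152 over all genes.

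*Ugp2* makes UDP-glucose, the substrate of the synthases (NM_001290634, mm10 chr11:21321126-21371267, minus strand). It was at 95.6, 94.4 and 122 TPM in RT WT, at 105, 106 and 102 TPM in RT *Txnip*-/-, at 115, 123 and 110 TPM in TN WT and at 103, 90.3 and 102 TPM in TN *Txnip*-/-. *Gbe1*, the branching enzyme (NM_028803, mm10 chr16:70313949-70569720, plus strand), was at 190, 182 and 225 TPM in RT WT, at 205, 210 and 199 TPM in RT *Txnip*-/-, at 206, 230 and 201 TPM in TN WT and at 193, 161 and 193 TPM in TN *Txnip*-/-. Both genes had their highest RT WT value in replicate 3, overlapped between genotypes at RT and lay lower in every TN *Txnip*-/- library than in any TN WT library. No comparison called either gene as deposited, while median centring called *Gbe1* lower at TN than at RT in *Txnip*-/- mice (−0.36, adjusted p = 0.0118). At TN the genotype difference was −0.23 for *Ugp2* (SE 0.08, adjusted p = 0.104) and −0.22 for *Gbe1* (SE 0.09, adjusted p = 0.192). At RT it was 0.02 for *Ugp2* (95% interval −0.22 to 0.25) and 0.05 for *Gbe1* (95% interval −0.15 to 0.24). *Ugp2* shares exon bases with *Gm12043* on the opposite strand.

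Each of these 2 genes was the nearest to the other of all 12486 genes, with a Pearson's r of 0.926 over the 12 libraries, which share groups and scaling. Their upstream sequences are shown because the pair moved together. They run from 250 bases before the RefSeq start (GRCm38.p6) and leave out the last 70 bases before it. The *Ugp2* stretch is chr11:21371338-21371517 (minus strand) and the *Gbe1* stretch chr16:70313699-70313878 (plus strand), both written 5′ to 3′ along the gene.
Ugp2: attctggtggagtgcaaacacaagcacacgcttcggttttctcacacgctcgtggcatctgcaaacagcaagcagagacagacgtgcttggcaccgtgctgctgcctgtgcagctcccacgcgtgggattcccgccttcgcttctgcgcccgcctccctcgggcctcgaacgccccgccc
Gbe1: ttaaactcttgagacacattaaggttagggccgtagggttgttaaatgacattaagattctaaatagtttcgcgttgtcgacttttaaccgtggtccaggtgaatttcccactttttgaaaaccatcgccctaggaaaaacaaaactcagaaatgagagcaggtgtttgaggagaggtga
Within the 250 bases, 4 motifs were searched on both strands, namely the E-box CACGTG, the cyclic AMP response element TGACGTCA, DR1 (AGGTCANAGGTCA) and AGGTCA, the repeated unit of DR1, on its own. Neither gene held any of them. Among 32536 windows of the same length, 6.04% held CACGTG, 1.56% the cyclic AMP response element, 0.0338% DR1 and 14.0% AGGTCA, which every DR1 also contains. RefSeq windows were matched for 8 of the 9 members.

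*Ppp1r3c* encodes a glycogen-targeting subunit of protein phosphatase 1 known as PTG (NM_016854, mm10 chr19:36731731-36736604, minus strand), which favours glycogen synthesis. It was at 52.1, 120 and 127 TPM in RT WT, at 80.2, 99.4 and 83.5 TPM in RT *Txnip*-/-, at 34.4, 46.4 and 36.4 TPM in TN WT and at 45.9, 32.2 and 70.0 TPM in TN *Txnip*-/-. All RT libraries lay above all TN libraries of their genotype, while the genotypes overlapped at both temperatures. From RT to TN, *Ppp1r3c* fell by 1.24 on the log2 scale in WT mice (SE 0.32, adjusted p = 0.00799), and it was also called lower in *Txnip*-/- mice (−0.88, SE 0.32, adjusted p = 0.0381). The call in *Txnip*-/- mice was lost when any of replicates 1, 2 and 3 of RT *Txnip*-/- or 1 and 2 of TN *Txnip*-/- was left out, with values from −0.94 to −0.61 and adjusted p from 0.0554 to 0.149, and with no filter on low values (adjusted p = 0.0663). The genotype difference was −0.09 (SE 0.32, adjusted p = 0.929) at RT and 0.27 (SE 0.25, adjusted p = 0.553) at TN. Replicate 1 of RT WT, at 52.1 TPM, stood far below the other libraries of its group.

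Among the 8 matched members, the upstream window of *Ppp1r3c* held CACGTG, that of *Pygl* held AGGTCA and the others held no searched motif. The *Ppp1r3c* stretch chr19:36736675-36736854 (GRCm38.p6, minus strand) is shown for its E-box, whose letters are in capitals and begin at position −104 from the RefSeq start.
Ppp1r3c: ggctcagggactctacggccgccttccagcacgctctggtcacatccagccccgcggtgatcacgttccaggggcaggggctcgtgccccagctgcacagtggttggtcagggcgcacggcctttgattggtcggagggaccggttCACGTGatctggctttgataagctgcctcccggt
The match is a description of the letters, and binding was not measured in the values used here.

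*Ppp1r3c* belongs to a family of targeting subunits, and its share of their summed TPM was 40.5% ± 10.7 in WT and 37.2% ± 0.605 in *Txnip*-/- mice at RT, and 19.7% ± 1.14 in WT and 19.8% ± 2.95 in *Txnip*-/- mice at TN (SD, n = 3 each). *Ppp1r3b*, the subunit known from liver, which is named here after its values were seen, held 45.0% ± 5.37, 52.5% ± 2.50, 67.8% ± 3.47 and 70.4% ± 1.24 in the same order. These 2 were the main targeting subunits in every group, with shares that overlapped in RT WT and that of *Ppp1r3b* larger in every library of the other groups. *Ppp1r3b* ranged from 87.8 to 210 TPM and was not called in any comparison, with a TN against RT difference of 0.34 (SE 0.21, adjusted p = 0.201) in WT and 0.45 (SE 0.21, adjusted p = 0.0992) in *Txnip*-/- mice.

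**Figure D2:**
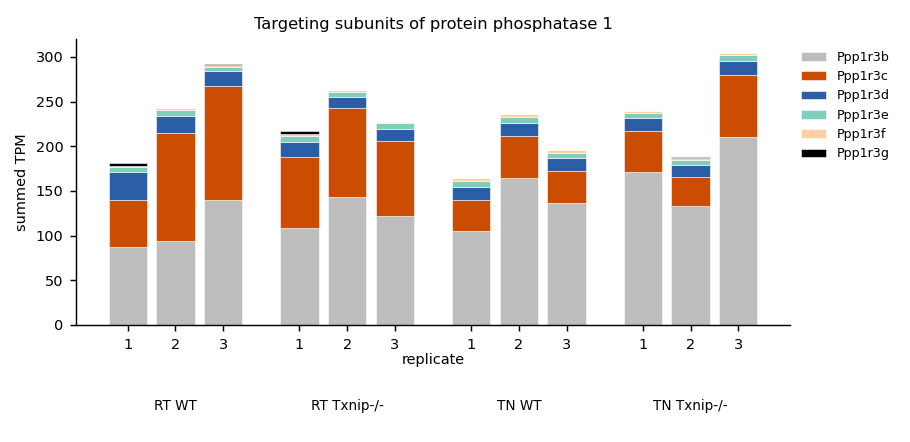
Summed TPM (vertical axis, from 0) of the targeting subunits of protein phosphatase 1 in each of the 12 libraries, stacked by gene, with replicates on the horizontal axis. The *Ppp1r3c* part shrinks from a mean of 40.5% of the bar in RT WT to 19.7% in TN WT, and the ranges of the genotypes overlap within each temperature.

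On the breakdown side, *Pygl* (NM_133198, mm10 chr12:70190815-70227683, minus strand) was the member whose genotype difference passed the test. The gene was at 332, 395 and 258 TPM in TN WT and at 543, 470 and 499 TPM in TN *Txnip*-/-. Every *Txnip*-/- library was above every WT library, and the mean was 1.54 times as high (504 ± 36.8 against 328 ± 68.5 TPM, SD, n = 3 each). The log2 fold change was 0.64 (SE 0.15, adjusted p = 0.0342). *Pygl* was the 1 member called among the 8 other than *Gys2*, in a comparison in which 8.66% of 12891 genes were called and 6.49% were called higher. The call was close to its limit. It was lost when replicate 1 or 3 of TN WT or any replicate of TN *Txnip*-/- was left out, with log2 fold changes from 0.48 to 0.69 and adjusted p from 0.0574 to 0.117, and with no filter on low values (adjusted p = 0.0864).

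At RT, *Pygl* was at 379, 354 and 602 TPM in WT and at 580, 583 and 621 TPM in *Txnip*-/-. Replicate 3 of RT WT lay among the *Txnip*-/- libraries and the other WT libraries below them. The log2 fold change was 0.46 (SE 0.18, adjusted p = 0.279) and not called, while without replicate 3 of RT WT it was 0.70 (adjusted p = 0.00884). In that comparison limma called none of the 8 members, beside 1.49% of 11980 genes, and *Pygl* alone of the 8 had an unadjusted p under 0.05, beside 16% of all genes. *Pygl* did not pass the test between temperatures, with −0.42 (SE 0.18, adjusted p = 0.0769) in WT and −0.24 (SE 0.18, adjusted p = 0.295) in *Txnip*-/- mice. In WT mice it was called lower with upper-quartile scaling (−0.52, adjusted p = 0.0439) with median centring (−0.60, adjusted p = 0.0253) and without replicate 2 of TN WT or of RT WT (−0.56 in both, adjusted p = 0.0386 and 0.0354), but without replicate 3 of RT WT it was −0.18 (adjusted p = 0.318) and without replicate 3 of TN WT −0.26 (adjusted p = 0.276). The macrophage markers, all 8 of them in the table and none at 0 throughout a group, were summed at 67.4–78.3 TPM in WT against 114–187 TPM in *Txnip*-/- mice at RT, and 150–266 TPM in WT against 432–608 TPM in *Txnip*-/- mice at TN, and their part in the *Pygl* values was not tested.

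The upstream stretch of *Pygl* (GRCm38.p6 chr12:70227754-70227933, minus strand) is shown as that of the member called between genotypes. It held 1 AGGTCA, read on the opposite strand, whose letters are in capitals and begin at position −128 from the RefSeq start.
Pygl: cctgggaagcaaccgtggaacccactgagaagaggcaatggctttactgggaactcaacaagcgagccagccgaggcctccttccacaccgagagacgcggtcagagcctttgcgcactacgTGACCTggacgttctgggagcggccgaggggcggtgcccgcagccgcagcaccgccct
The genes most like *Pygl* over the 12 libraries were *Eno1* (r = 0.953), a glycolytic enolase, *Acaca* (r = 0.948), acetyl-CoA carboxylase of fatty acid synthesis, and *Thrsp* (r = 0.917).

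*Pygb*, the brain form (NM_153781, mm10 chr2:150786796-150831748, plus strand), was at 70.2, 52.2 and 42.7 TPM in RT WT, at 54.2, 48.0 and 54.1 TPM in RT *Txnip*-/-, at 82.5, 67.4 and 78.8 TPM in TN WT and at 78.4, 81.6 and 79.6 TPM in TN *Txnip*-/-. It followed temperature and overlapped between genotypes, with a difference of −0.05 (SE 0.16, adjusted p = 0.924) at RT and 0.07 (SE 0.08, adjusted p = 0.653) at TN. *Pygb* rose from RT to TN in WT mice by 0.49 on the log2 scale (SE 0.14, adjusted p = 0.014), with replicate 1 of RT WT inside the TN range, and in *Txnip*-/- mice by 0.61 (SE 0.14, adjusted p = 0.00399) without overlap. In WT mice the call was lost without replicate 3 of RT WT (0.32, adjusted p = 0.0515) and with median centring (0.30, adjusted p = 0.0907).

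*Pygm*, the muscle form (NM_011224, mm10 chr19:6384408-6398464, plus strand), was at 3.18, 3.31 and 2.20 TPM in RT WT, at 3.67, 3.04 and 4.49 TPM in RT *Txnip*-/-, at 5.28, 4.92 and 4.98 TPM in TN WT and at 4.95, 4.52 and 5.21 TPM in TN *Txnip*-/-. It rose from RT to TN in WT mice by 0.65 on the log2 scale (SE 0.13, adjusted p = 0.00201), with no overlap, and was not called in *Txnip*-/- mice (0.33, SE 0.13, adjusted p = 0.054), where it was called without replicate 3 of RT WT (adjusted p = 0.0246) or of RT *Txnip*-/- (0.44, adjusted p = 0.0203). Whether these 2 changes differ was tested through the interaction, which gave −0.32 (SE 0.18, adjusted p = 0.492). The genotype differences were 0.28 (SE 0.16, adjusted p = 0.446) at RT and −0.04 (SE 0.08, adjusted p = 0.806) at TN. With 1 library left out, the RT value ran from 0.15 to 0.39 and the interaction from −0.43 to −0.19. The 10 skeletal muscle markers, *Acta1* and *Ckm* among them, none of them at 0 throughout a group, summed to 2.79–3.41 TPM in WT against 25.3–64.4 TPM in *Txnip*-/- mice at RT, and 3.19–21.2 TPM in WT against 3.93–19.6 TPM in *Txnip*-/- mice at TN, and their part in the *Pygm* values was not tested.

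Over the 3 phosphorylases, *Pygl* held 87.8% ± 4.77 of the summed TPM in WT and 91.4% ± 0.514 in *Txnip*-/- mice at RT, and 79.7% ± 4.56 in WT and 85.6% ± 1.09 in *Txnip*-/- mice at TN (SD, n = 3 each). *Pygb* held 11.6% ± 4.56, 8.02% ± 0.466, 19.1% ± 4.35 and 13.6% ± 1.08 in the same order, and *Pygm* between 0.341% and 1.46% in any library. The liver form was thus the main phosphorylase transcript in every group. The mean share of the brain form was higher at TN than at RT in either genotype, with overlapping libraries in WT mice. At RT the *Pygl* shares of the genotypes overlapped (83.8–93.1% in WT, 90.9–91.9% in *Txnip*-/- mice). The phosphorylases summed to 503 ± 126 TPM in WT against 650 ± 25.2 TPM in *Txnip*-/- mice at RT, and 409 ± 63.3 TPM in WT against 589 ± 35.4 TPM in *Txnip*-/- mice at TN (SD, n = 3 each). These sums overlapped between genotypes at RT (410–646 TPM in WT, 634–679 TPM in *Txnip*-/- mice) but not at TN.

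Set against the summed synthases, phosphorylase TPM were 3.58 ± 0.723 times as high in WT and 5.81 ± 0.741 times in *Txnip*-/- mice at RT, and 3.76 ± 0.726 times in WT and 7.19 ± 0.685 times in *Txnip*-/- mice at TN (SD, n = 3 each). The libraries ran from 3.09 to 4.41 in RT WT and from 5.29 to 6.66 in RT *Txnip*-/-, and from 3.23 to 4.58 in TN WT and from 6.61 to 7.95 in TN *Txnip*-/-. The genotypes did not overlap at either temperature. The ratio contains *Gys2*, through which it was in part fixed by the choice of members, and it carries no test. It describes transcripts and not enzyme activity or glycogen content.

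**Figure D3:**
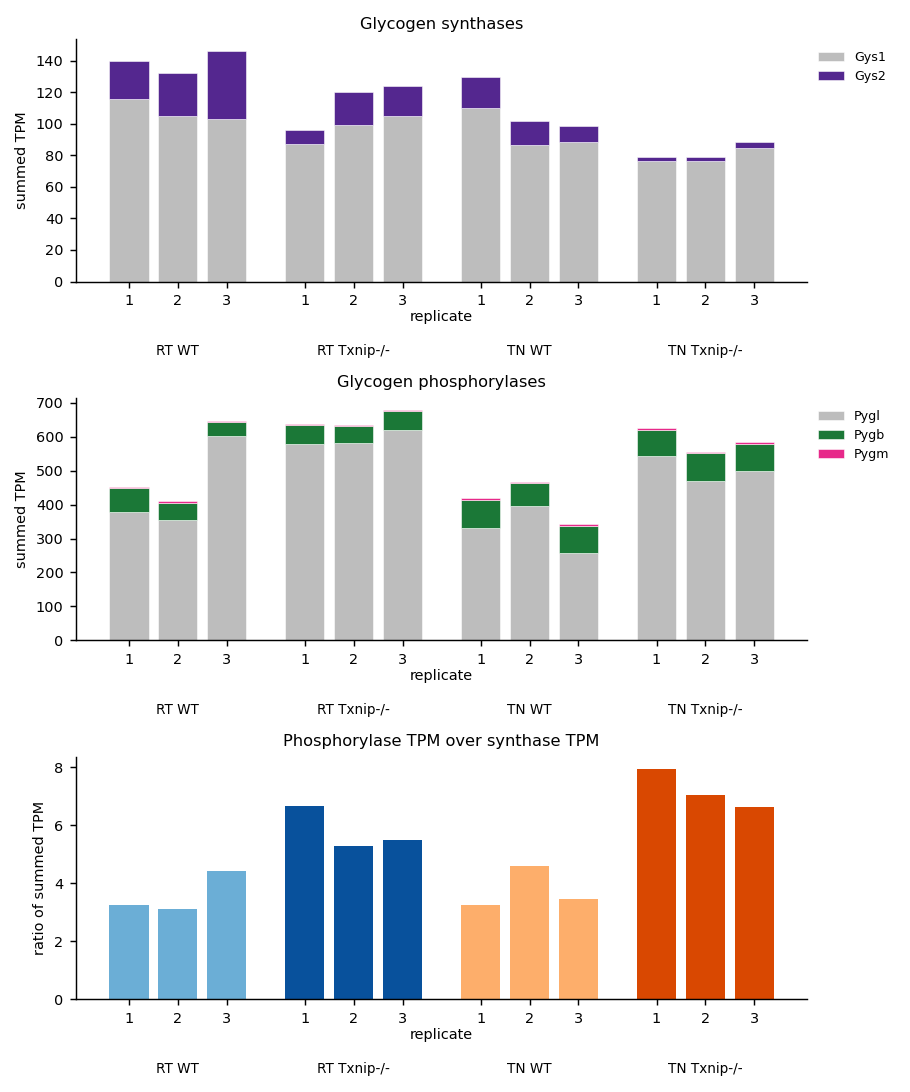
Summed TPM (vertical axes, from 0) of the glycogen synthases and phosphorylases in each library, stacked by isoform, and the ratio of the summed TPM, with replicates on the horizontal axes. The ratio is at most 4.58 in any WT library and at least 5.29 in any *Txnip*-/- library.

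Counted by comparison, 5 of the 8 members other than *Gys2* had non-overlapping genotype groups at TN, *Pygl* higher and *Gyg*, *Ugp2*, *Gys1* and *Gbe1* lower, where 31.1% of all genes tested did not overlap and 13.4% lay lower. The 4 synthesis genes differed by −0.25 to −0.22 on the log2 scale with adjusted p from 0.0912 to 0.192, and none was called. With 1 library left out, *Gys1* ran from −0.32 to −0.14, *Gbe1* from −0.26 to −0.13, *Gyg* from −0.30 to −0.19 and *Ugp2* from −0.27 to −0.17, again without a call. The median of the 8 was −0.13, beside 0.008 over all genes. At RT none of the 8 had groups that did not overlap (22.6% of all genes), and their median was −0.017, beside 0.033 over all genes. The 2 genotype comparisons used separate libraries, whereas the temperature comparisons used the same 12 again.

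Between temperatures, 4 of the 8 were called in WT mice, namely *Gyg*, *Pygb* and *Pygm* higher and *Ppp1r3c* lower, in a comparison with 37.8% of 12486 genes called (31.4% higher and 6.39% lower). In *Txnip*-/- mice 2 were called, *Pygb* higher and *Ppp1r3c* lower, beside 39.2% of genes (30.9% higher and 8.27% lower). The medians of the 8 were 0.128 in WT and −0.128 in *Txnip*-/- mice, beside 0.184 and 0.152 over all genes. The higher calls depended on the scaling: of all calls in WT mice 83.1% were higher as deposited, 70.4% with upper-quartile scaling and 51.1% with median centring, and in *Txnip*-/- mice 78.9%, 68.8% and 48.5%. Temperature and any batch of housing or library preparation cannot be told apart. The sums of several marker lists also differed between temperatures without overlap. The brown adipocyte sum, given above, was lower at TN in both genotypes, the mature adipocyte sum likewise, and the macrophage sum was higher at TN in both. The 6 white adipocyte markers summed to 21.5–52.5 TPM at RT and 95–116 TPM at TN in WT mice, and to 42.2–67.5 and 112–180 TPM in *Txnip*-/- mice, with 4 of the 6 reaching 1 TPM in each group. Most of the difference in WT mice lay in *Lep* (mean 3.72 TPM at RT and 58.0 TPM at TN), while *Retn* overlapped between temperatures in both genotypes. The 6 endothelial markers, *Pecam1* and *Cdh5* among them, summed to 258–271 and 306–378 TPM in WT and to 217–257 and 335–371 TPM in *Txnip*-/- mice. Of these, *Flt1* overlapped between temperatures in both genotypes, and *Kdr* and *Emcn* in WT mice. None of the markers on these lists was at 0 throughout a group, and their part in the temperature values was not tested. No member passed the interaction test of genotype and temperature (adjusted p from 0.436 to 0.831, and 0 of the 8 at an unadjusted p under 0.05), in which 0.00801% of 12486 genes were called by limma, namely *Txnip* itself, and 1571 (12.6%) had an unadjusted p under 0.05.

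**Figure D4:**
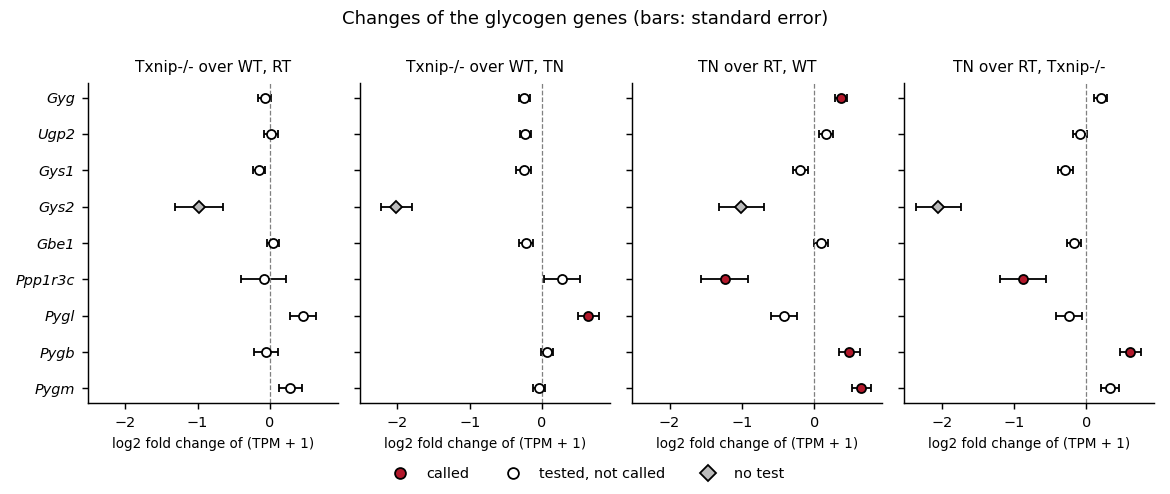
Log2 fold change of TPM + 1 (horizontal axes) with its standard error for the 9 genes in the 4 comparisons, from 3 libraries against 3. Filled circles were called, open circles were tested and not called, and grey diamonds mark *Gys2* values without a test. *Pygl* is the called gene between genotypes (0.64 at TN), and *Ppp1r3c* and *Pygb* are called in opposite directions between temperatures.

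A list of 23 further glycogen genes was examined, of which 22 were matched by symbol. At RT 21 and in the other comparisons 20 passed the filter on low values. Between genotypes 1 of them was called at each temperature, the same gene, *Phkg1*, beside 1.49% of all genes called at RT and 8.66% at TN. The medians of the list were −0.019 at RT and −0.028 at TN, beside 0.033 and 0.008 over all genes. Between temperatures 6 were called in WT mice, 4 higher and 2 lower, and 5 in *Txnip*-/- mice, all higher. Of all genes 37.8% were called in WT mice, 31.4% higher and 6.39% lower, and 39.2% in *Txnip*-/- mice, 30.9% higher. The medians of the list were 0.154 and 0.101 beside 0.184 and 0.152 over all genes.

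*Phkg1* encodes the catalytic subunit of phosphorylase kinase known from muscle. It was at 1.38 ± 0.156 TPM (SD, n = 3) in RT WT, at 2.40, 2.46 and 2.68 TPM in RT *Txnip*-/-, at 1.72, 2.07 and 2.0 TPM in TN WT and at 4.75, 7.16 and 3.62 TPM in TN *Txnip*-/-. Every *Txnip*-/- library exceeded every WT library of its temperature, at a low level throughout. The log2 fold change was 0.56 at RT (SE 0.10, adjusted p = 0.0474) and 1.04 at TN (SE 0.19, adjusted p = 0.0169). The call at RT was lost when any of the 6 libraries was left out (adjusted p from 0.0942 to 0.174), with log2(TPM + 0.1) (adjusted p = 0.0538), no filter on low values (0.103), the replicate block or all 12 libraries in 1 fit (0.1 each), and with the authors' log2-scale values, where 0.27 was below the fold limit and another transcript of the gene was used. That at TN was lost with no filter (adjusted p = 0.0528) and without replicate 1 or 3 of TN WT or replicate 1 of TN *Txnip*-/- (adjusted p from 0.051 to 0.0554). The TN value ran from 0.61 to 1.33 over the alternative settings and from 0.82 to 1.23 with 1 library left out. From RT to TN *Phkg1* rose in *Txnip*-/- mice (0.77, SE 0.16, adjusted p = 0.00226) and was at 0.30 (SE 0.16, adjusted p = 0.149) in WT mice, and the interaction was 0.48 (SE 0.23, adjusted p = 0.423). Its share of the summed *Phkg1* and *Phkg2* TPM was 8.15% ± 1.13, 14.0% ± 0.495, 9.59% ± 1.21 and 21.1% ± 5.69 in the same order of groups as above (SD, n = 3 each). Exons of *Phkg1* overlap those of *Sumf2* on the opposite strand. The summed skeletal muscle markers were higher in all 3 RT *Txnip*-/- libraries than in RT WT, and overlapped between the genotypes at TN. The macrophage sum, given above, was higher in every *Txnip*-/- library than in any WT library of its temperature. The part of either list in the *Phkg1* values was not tested.

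*Stbd1*, which binds glycogen and is known for its sorting to lysosomes, was the lowest of the list between genotypes at TN on the log2(TPM + 1) scale, whereas *Ppp1r3f* was lower with log2(TPM + 0.1) (−0.40 against −0.36). It was at 12.7, 12.8 and 12 TPM in RT WT, at 12.3, 7.45 and 6.57 TPM in RT *Txnip*-/-, at 15.2, 16.1 and 14.2 TPM in TN WT and at 12.8, 10.1 and 12.7 TPM in TN *Txnip*-/-. The groups did not overlap at TN, but neither the TN value (−0.34, SE 0.10, adjusted p = 0.0773) nor the RT value (−0.51, SE 0.20, adjusted p = 0.262) was called. Without replicate 1 of RT *Txnip*-/- the RT value was −0.75 (adjusted p = 0.046) and called. In *Txnip*-/- mice its TN against RT value of 0.43 (SE 0.17, adjusted p = 0.0485) was called, and the call was lost in 10 of the 12 settings that left out 1 library, with no filter on low values (adjusted p = 0.0781), with upper-quartile scaling (0.36, adjusted p = 0.098) and with median centring (0.25, adjusted p = 0.222).

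*Ppp1r3d*, another targeting subunit, had the lowest value of the list at RT in the fit to all 6 libraries, −0.56 (SE 0.20, adjusted p = 0.237), and was at −0.32 (adjusted p = 0.33) without replicate 1 of RT WT, where *Stbd1* was lower (−0.50). It was at 31.2, 19.8 and 17.7 TPM in RT WT and between 13.1 and 17.1 TPM in the 9 other libraries. In WT mice it fell from RT to TN by 0.56 on the log2 scale (SE 0.16, adjusted p = 0.0154), and without replicate 1 of RT WT the value was −0.32 (adjusted p = 0.0284) with a fold just inside the limit of 0.8, so that the call was lost. *Ppp1r3f* rose in both genotypes (0.57, SE 0.10, adjusted p = 0.00092 in WT and 0.33, SE 0.10, adjusted p = 0.015 in *Txnip*-/- mice) at 1.45 to 3.30 TPM, and its exons overlap other genes on both strands. In *Txnip*-/- mice its call was lost with upper-quartile scaling (0.28, below the fold limit), with median centring (0.14, adjusted p = 0.231) and without replicate 1 or 2 of TN *Txnip*-/- or replicate 2 of RT *Txnip*-/- (0.25 to 0.32). The catalytic subunit *Ppp1cb* also rose in both (0.65, SE 0.11, adjusted p = 0.000888 and 0.42, SE 0.11, adjusted p = 0.00861), from 139–157 TPM in RT WT to 206–250 TPM in TN WT. With median centring the *Ppp1cb* value in *Txnip*-/- mice was 0.23 (adjusted p = 0.0978) and not called. Its exons overlap *Gm43312* on the same strand.

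The gene listed as *Pgm1* (NM_025700, chromosome 5), a phosphoglucomutase, is named *Pgm2* in GENCODE M21. It rose from RT to TN by 0.68 (SE 0.14, adjusted p = 0.00256) in WT and by 0.59 (SE 0.14, adjusted p = 0.00494) in *Txnip*-/- mice, at 3.85 to 8.67 TPM. *Epm2a*, which encodes the glycogen phosphatase laforin, and *Nhlrc1*, which encodes its partner malin, were called in WT mice in opposite directions (0.43, SE 0.14, adjusted p = 0.0287 and −0.39, SE 0.13, adjusted p = 0.0285). Both calls were lost in several of the settings that left out 1 library, with adjusted p up to 0.117 for *Epm2a* and up to 0.0962 for *Nhlrc1*. That of *Epm2a* was also lost with upper-quartile scaling (0.34, adjusted p = 0.0698) and with median centring (0.24, adjusted p = 0.162).

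**Figure D5:**
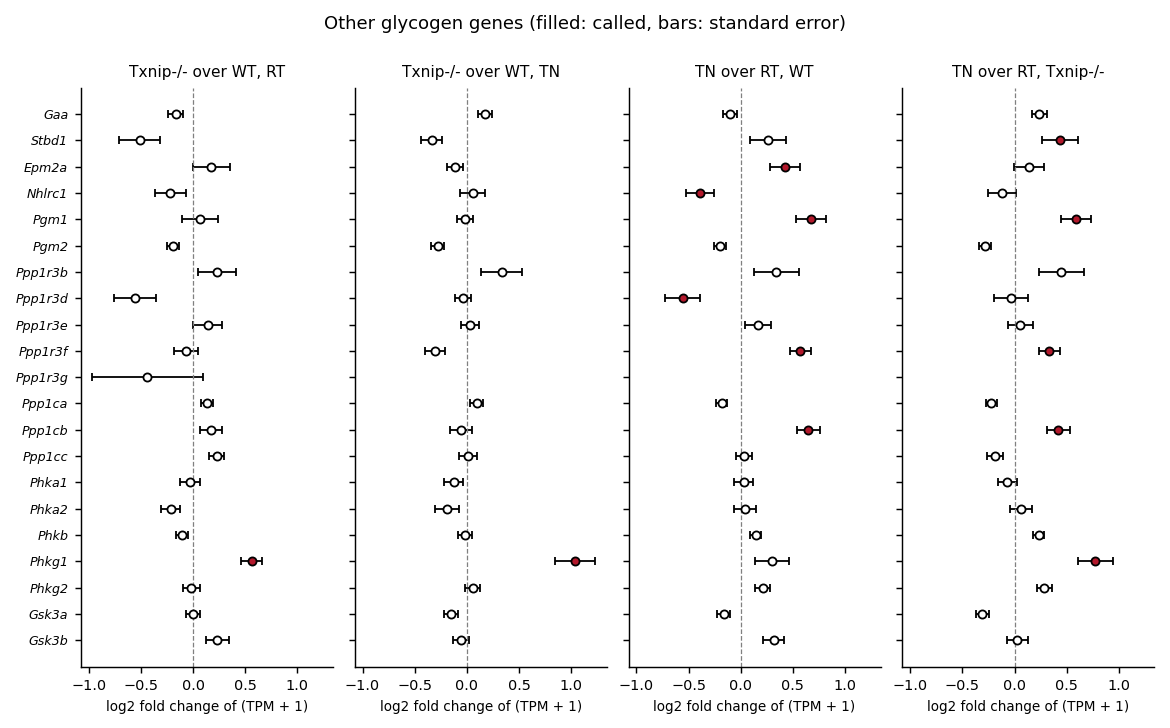
Log2 fold change of TPM + 1 (horizontal axes) with its standard error for the other glycogen genes that passed the filter in the 4 comparisons, from 3 libraries against 3. Filled circles were called. *Phkg1* is the called gene in both genotype panels (0.56 at RT and 1.04 at TN), while the temperature panels hold 6 and 5 called genes.

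Over the 12 libraries the genes most like *Gys2* were *Coq6* (r = 0.986), an enzyme of coenzyme Q synthesis, *Ndufa10* (r = 0.97), a subunit of respiratory complex I, *Gfm1* (r = 0.967), an elongation factor of mitochondrial translation, the gene listed as *Pgm2* (r = 0.965) and *Cmc2* (r = 0.963). These values describe 12 libraries that share the same 4 groups and have no p. The gene listed as *Pgm2* (NM_028132, chromosome 4) is named *Pgm1* in GENCODE M21. It was the more abundant of the listed phosphoglucomutases, which link glucose 1-phosphate with glucose 6-phosphate. It was at 211 ± 10.6 TPM in WT against 185 ± 6.92 TPM in *Txnip*-/- mice at RT, and 184 ± 3.64 TPM in WT against 151 ± 6.61 TPM in *Txnip*-/- mice at TN (SD, n = 3 each). Its exons overlap those of *Itgb3bp* on the opposite strand. Its genotype groups did not overlap at either temperature. The difference at TN was −0.28 (SE 0.06) with a fold of 0.823, short of the limit of 0.8, and that at RT −0.19 (SE 0.06). The gene is described here because it followed *Gys2*, which was put forward as low without *Txnip*. Its genotype values were therefore in part fixed by that choice and are given without a test.

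The nearest genes of the other members were *Rtn4ip1* for *Gys1* (r = 0.952), *Oxld1* for *Gyg* (r = 0.955), *Tbc1d2b* for *Pygb* (r = 0.976), *Kdm1b* for *Pygm* (r = 0.973) and *Dhx8* for *Ppp1r3c* (r = 0.977). Among the members themselves, *Gys1* and *Gys2* had an r of 0.871, *Pygb* and *Pygm* of 0.827, and *Pygb* and *Ppp1r3c* of −0.903, whereas *Pygl* and *Gys2*, the liver forms of opposite steps, had an r of −0.106.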

How the data were processed

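Total RNA of interscapular BAT was poly-A selected and sequenced single-end. The authors aligned reads to mm10 with STAR 2.7.5a and counted exon reads with HOMER 4.11.1. They deposited TPM of all 12 libraries, scaled for transcript length and library size, with 1 transcript per gene. For each temperature they also deposited log2-scale values of its 6 libraries by a transform that is not named, used here as an alternative only, and the transcript length in bases. Those tables further hold fold changes and p-values of the authors' DESeq2 comparison, which were not used. All tables use the same transcript for 12 of the 22 other glycogen genes and for the members except *Ugp2*. In each library the listed genes hold 55.38% to 57.55% of the full TPM scale. Gene counts were not analysed here, so counting error was not computed and the spread of 3 libraries sets the precision, at 29.93 M to 47.44 M reads per library.

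Here, log2(TPM + 1) was modelled for genes whose TPM averaged 1 or more in the libraries fitted, with limma 3.58.1 in R 4.3.3 (empirical Bayes moderation with a trend, Benjamini-Hochberg adjustment over all genes tested). Genotypes were compared on the 6 libraries of a temperature. Temperatures and the interaction used the 4 group means of all 12 libraries. The members and lists were chosen with earlier results of these data known. Named genes are the 9 members, further glycogen genes called in any comparison or at either end of their list between genotypes, and the genes most like a member, and *Ppp1r3b*, chosen after its values were seen. A planned gene of the list is not reported here. The TN against RT tests of *Gys2* were planned but are given without their p. Alternatives were another pseudocount, no filter, a TPM of 1 or more throughout, upper-quartile scaling, median centring, the replicate block, adjusted p alone, 1 fit for all 12 libraries, the authors' log2-scale values and each library left out. In simulated libraries with independent noise, 200 genes were shifted by a log2 value of 1. The test recovered 91% at RT, 89.5% at TN, 94% between temperatures in WT mice and 76.5% in the interaction, with 4 to 6 false calls. Smaller shifts, such as those of most members, were not simulated, so these rates do not hold for them. Overlapping exons were read from GENCODE M21, and promoter sequence from RefSeq (GRCm38.p6). Plots were made in Python 3.11.15 (matplotlib 3.10.9).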

Additional observations from a re-analysis of the deposited data

How the results depend on the processing

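Calls of single genes that were lost or gained under another setting are given with their gene above. The number of genes called at RT was 178, and it was 44 with no filter on low values, 100 with the replicate block and 272 with all 12 libraries in 1 fit, and between 2 and 159 with 1 library left out. At TN it was 1116, against 621 with no filter and 456 to 1005 with 1 library left out. Of the 8 members other than *Gys2*, 0 were called at TN with no filter and 0 or 1 at either temperature with 1 library left out. Of the other glycogen genes, 0 were called at RT with log2(TPM + 0.1), no filter, the replicate block, all 12 libraries in 1 fit and the authors' log2-scale values, and 0 to 1 with 1 library left out. At TN 0 were called with no filter, 2 by adjusted p alone (beside 1207 of all 12891 genes) and 0 to 1 with 1 library left out. Between temperatures, adjusted p alone called 12 of the 20 other glycogen genes in WT mice, beside 6278 of all 12486 genes. In *Txnip*-/- mice it called 11, beside 6418 of all genes. Leaving out 1 library called 4 to 6 of the list in WT mice, beside 4094 to 4775 of all genes. In *Txnip*-/- mice it called 3 to 6, beside 4303 to 5127. Of the 8 members, leaving out 1 library called 2 to 5 in WT and 1 to 3 in *Txnip*-/- mice. In *Txnip*-/- mice median centring called 4, beside 4729 of all genes, and no filter 1, beside 5718. The interaction called 1 to 6 genes with 1 library left out.

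Signs turned for small values that passed no test. At RT these were *Ugp2* with upper-quartile scaling (−0.0084), median centring (−0.0127) and the authors' values (−0.0223), and *Gbe1* with the authors' values (−0.0017). Between temperatures in WT mice they were *Gbe1* with upper-quartile scaling (−0.0059) and median centring (−0.0869) and *Ugp2* with median centring (−0.0229), and in *Txnip*-/- mice *Epm2a* with median centring (−0.0491). With 1 library left out, the RT values ran from −0.1563 to 0.0015 for *Gyg*, −0.0487 to 0.1345 for *Ugp2*, −0.2138 to 0.1384 for *Pygb*, −0.0169 to 0.1381 for *Gbe1*, −0.4979 to 0.1378 for *Ppp1r3c*, −0.0822 to 0.2101 for *Pgm1* and −0.136 to 0.0128 for *Ppp1r3f*. The TN values ran from −0.067 to 0.029 for *Pgm1*, −0.0132 to 0.1308 for *Pygb*, −0.0804 to 0.0044 for *Pygm*, −0.0799 to 0.0035 for *Ppp1r3d*, −0.1391 to 0.0332 for *Ppp1cb* and −0.0097 to 0.5382 for *Ppp1r3c*. Between temperatures in *Txnip*-/- mice they ran from −0.1182 to 0.065 for *Ppp1r3d* and −0.2169 to 0.0038 for *Nhlrc1*, and in the interaction from −0.1746 to 0.0123 for *Gys1*, −0.0664 to 0.2858 for *Pygb* and −0.0576 to 0.3238 for *Pygl*. The cause of these changes was not tested. Same-numbered libraries of the 2 genotypes had deviations with an r of 0.3, −0.013 and 0.216 at RT and 0.039, 0.023 and −0.029 at TN. Libraries of unlike number ran from −0.305 to 0.158 at RT and from −0.08 to 0.066 at TN. At RT 0.3 and 0.216 thus lay above all values of unlike number, and whether mice were paired there is not settled by these values. The sample labels name no pairs, and the main fits did not pair the mice. The replicate block lowered the count of calls at RT to 100 and at TN to 977, and among the genes named here it ended the RT call of *Phkg1* (adjusted p = 0.1) and no other call.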
